A study of Mus musculus with 4 samples.

Results

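The genes described here are the axon guidance ligands and receptors that also steer the neural crest, taken as one group of 67 of the 21887 protein-coding genes in the RefSeq table of GRCm38.p6, the build that mm10 stands for. Members were chosen by symbol alone, and the rule used no measured value, though earlier results of these data were known by then. They were 20 semaphorins, 11 plexins and neuropilins, 8 ephrins, 14 Eph receptors, 3 Slits and 4 Robos. The netrin Ntn1 and 6 netrin receptors (Unc5a to Unc5d, Dcc and Neo1) completed the group. Each gene was read over its body and 10 kb on each side. These windows held 670 of the 103629 open regions found in any library, and 66 of the 67 genes had at least 1 region.

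Chromatin accessibility was measured by Omni-ATAC, in which the Tn5 transposase inserts adapters into open DNA, with 50000 cells in each reaction. The cells were B16F10, a mouse melanoma line grown in culture. One group carried a scrambled guide (sgScramble, n = 2 libraries) and the other a guide against Arid1a (sgArid1a, n = 2 libraries). The label gives no other treatment or genotype, and it does not say how the guides were delivered or whether the cells were clones. Arid1a encodes a subunit of the BAF (SWI/SNF) complex, which moves and evicts nucleosomes. Nothing says that the replicates came from separate cultures, so any p-value covers only the spread between these libraries. Groups follow the sample titles; inside the sgScramble lists the peaks carry names starting with sgNT.

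These families work as ligand and receptor pairs that make a growing axon or a moving cell turn, stop or advance. Semaphorins act through plexins, the secreted class together with neuropilins, while ephrins act through Eph receptor kinases in cell contact, Slits through Robos, and netrins through Dcc and Neo1 or, for repulsion, through Unc5 receptors. In the embryo, semaphorin, ephrin and Slit cues channel neural crest streams, and melanocytes, the source of melanoma, descend from those cells.

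The lists held 82319 and 85613 peaks in the sgScramble libraries and 65353 and 71255 in the sgArid1a libraries. They give no read counts, so depth is unknown, and every count below is a count of called regions. Since ATAC-seq was done on bulk cells, fewer cells with a site open and less opening in each cell cannot be told apart. As a check on the label, 9 of 10 melanocyte genes had a peak within 1 kb of a gene start in all 4 lists, the exception being Ednrb. So did 7 of 10 neural crest genes, without Tfap2b, Foxd3 and Twist1, with Sox10 and Pax3 counted in both sets. Such a peak was present for 57.0% of all genes. Among genes of other cells the same held for 2 of 7 leukocyte, 1 of 5 fibroblast, 0 of 4 keratinocyte, 0 of 3 endothelial and 2 of 4 neuronal genes. At Arid1a itself, 5 regions were in all 4 lists and 3 of the 8 regions in both sgScramble lists were in neither sgArid1a list. A peak list does not show whether the guide disrupted the gene.

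The sequences at guidance gene starts show the range of promoters in the group. Each line holds the 250 bases before a transcription start, from RefSeq on GRCm38.p6, 5′ to 3′ on the gene's strand, with CpG dinucleotides in capitals because CpG-rich promoters are often open across cell types. Neo1, a netrin receptor, Robo1, a Slit receptor, and Slit2, a Robo ligand, had a peak within 1 kb of the start in all 4 lists. Plxna2, a semaphorin receptor, had one only in the sgArid1a lists. Sema3a, a secreted repellent, and Epha8, an Eph receptor, had none in any list.
Neo1, chr9:59036442-59036691, minus strand: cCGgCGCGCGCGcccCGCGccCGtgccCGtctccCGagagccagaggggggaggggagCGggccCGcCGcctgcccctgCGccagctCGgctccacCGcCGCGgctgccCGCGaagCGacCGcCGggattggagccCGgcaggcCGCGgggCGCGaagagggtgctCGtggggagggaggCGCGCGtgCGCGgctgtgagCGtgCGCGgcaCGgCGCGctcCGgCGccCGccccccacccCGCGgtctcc
Robo1, chr16:72662899-72663148, plus strand: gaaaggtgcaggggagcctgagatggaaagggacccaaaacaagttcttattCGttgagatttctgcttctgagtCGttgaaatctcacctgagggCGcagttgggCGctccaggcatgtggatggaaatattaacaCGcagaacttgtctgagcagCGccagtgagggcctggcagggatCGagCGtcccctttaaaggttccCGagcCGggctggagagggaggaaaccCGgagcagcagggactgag
Slit2, chr5:47982905-47983154, plus strand: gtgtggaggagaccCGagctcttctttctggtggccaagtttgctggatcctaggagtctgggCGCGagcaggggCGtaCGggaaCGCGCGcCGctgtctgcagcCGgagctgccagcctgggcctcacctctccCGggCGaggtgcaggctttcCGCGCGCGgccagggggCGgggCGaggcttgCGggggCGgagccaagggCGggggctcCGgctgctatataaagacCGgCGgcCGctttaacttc
Plxna2, chr1:194619579-194619828, plus strand: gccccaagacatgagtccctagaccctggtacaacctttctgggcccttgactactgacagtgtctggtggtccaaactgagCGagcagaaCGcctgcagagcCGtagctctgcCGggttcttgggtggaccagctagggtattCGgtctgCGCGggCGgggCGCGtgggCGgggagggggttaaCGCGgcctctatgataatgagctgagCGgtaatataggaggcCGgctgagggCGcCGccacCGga
Sema3a, chr5:13396534-13396783, plus strand: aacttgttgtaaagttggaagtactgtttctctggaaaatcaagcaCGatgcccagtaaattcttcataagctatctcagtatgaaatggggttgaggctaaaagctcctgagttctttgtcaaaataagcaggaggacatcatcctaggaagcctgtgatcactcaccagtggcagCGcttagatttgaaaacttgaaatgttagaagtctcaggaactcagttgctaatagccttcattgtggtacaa
Epha8, chr4:136956817-136957066, minus strand: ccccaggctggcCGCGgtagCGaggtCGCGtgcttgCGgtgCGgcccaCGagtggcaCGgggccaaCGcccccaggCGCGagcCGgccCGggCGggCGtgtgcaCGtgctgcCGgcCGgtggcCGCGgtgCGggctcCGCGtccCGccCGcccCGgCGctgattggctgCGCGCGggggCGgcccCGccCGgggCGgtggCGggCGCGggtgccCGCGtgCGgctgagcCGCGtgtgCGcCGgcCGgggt

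These stretches hold 45 CpG in Neo1, 11 in Robo1, 25 in Slit2, 18 in Plxna2, 2 in Sema3a and 46 in Epha8. Epha8 thus had the most CpG of the 6 and no peak, while Robo1 had a peak in every library with far fewer. RefSeq listed 73 starts for 57 of the 67 genes, each with 300 bases (250 before and 50 after the start). Of these, 48 starts (65.8%) had a peak within 1 kb in all 4 lists, against 56.1% of 21263 starts of all genes. Another 16 starts (21.9%) had none, against 38.9%. Guidance promoters were richer in CpG, with a median of 20 per 300 bases against 13 over all starts. Within the group, the median was 23 at the starts open in all lists and 8.5 at those with no peak.

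**Figure D1:**
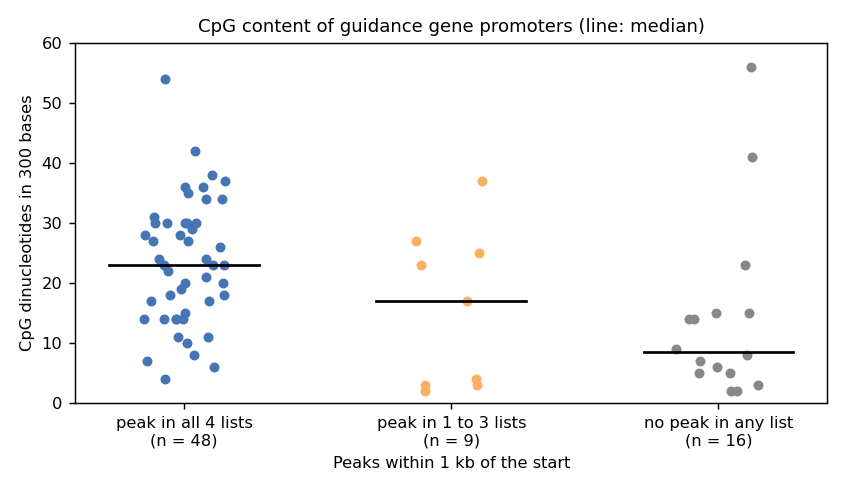
CpG dinucleotides in 300 bases around each of 73 guidance gene starts (vertical axis), grouped by whether a peak lay within 1 kb in all 4 lists, in 1 to 3 lists or in none; the line is the median. Medians were 23, 17 and 8.5, and the starts with no peak range from 2 to 56 CpG.

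Of the motifs searched on either strand, GGGCGG (SP) was in 71.2% of the guidance promoters against 46.2% of all promoters of the same length. The other motifs were in fewer guidance promoters than in all promoters: CCAAT (NF-Y) in 30.1% against 38.2%, ACAAAG (SOX) in 13.7% against 16.8%, CATTCC (TEAD) in 11.0% against 13.6%, CACGTG (E-box) in 6.85% against 7.84% and TGANTCA (AP-1) in 4.11% against 6.99%. At starts with a peak in all 4 lists, SP was in 79.2% of guidance promoters against 66.4% of all. SOX (14.6% against 12.8%) and TEAD (12.5% against 11.5%) were there in more guidance promoters. NF-Y (31.2% against 38.0%), E-box (4.17% against 10.2%) and AP-1 (4.17% against 4.4%) stayed in fewer. GGGCGG itself holds a CpG, and the median GC content over all listed starts was 64.3% in guidance promoters against 56.3%. No motif here contains another, and a match is a description of the sequence, not of binding.

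Across the 67 genes, 483 regions were in both sgScramble lists. Of these, 344 (71.2%) were also in both sgArid1a lists, 66 (13.7%, against 14.0% in all gene windows and 14.8% in all regions) were missing from 1 of them, and 73 (15.1%, 95% exact interval 12 to 18.6) were missing from both and are called lost. In the windows of all protein-coding genes 11.8% of regions were lost, and in all regions 12.9%. Gained regions, in both sgArid1a lists and neither sgScramble list, numbered 4 of 359 (1.11%, interval 0.304 to 2.83), against 1.33% in all gene windows and 1.39% in all regions. The intervals cover counting error over regions only. Of the 66 regions missing from 1 list, 42 were absent from sgArid1a replicate 1 and 24 from replicate 2. When every list was cut to the 65353 peaks with the highest −log10 p, 32 of 387 guidance regions (8.27%) were lost, against 6.14% in all gene windows.

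A lost region was seen in 38 of the 66 genes with a region in both sgScramble lists (57.6%), against 30.1% of all protein-coding genes. A gained region was seen in 4 genes (against 3.96% of all genes). Guidance genes are long, with a median of 60.9 kb against 17.2 kb, and hold more regions. Among genes with at least 5 regions in both sgScramble lists, 28 of 39 guidance genes (71.8%) had a lost region, against 60.2% of all genes. The share of lost regions was 10.9% in the 33 members under 50 kb, against 8.97% in all genes of that length. It was 13.8% against 12.2% from 50 to 200 kb, and 19.0% against 16.5% in the 18 members above 200 kb. The share was higher in the longer genes in both sets.

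**Figure D2:**
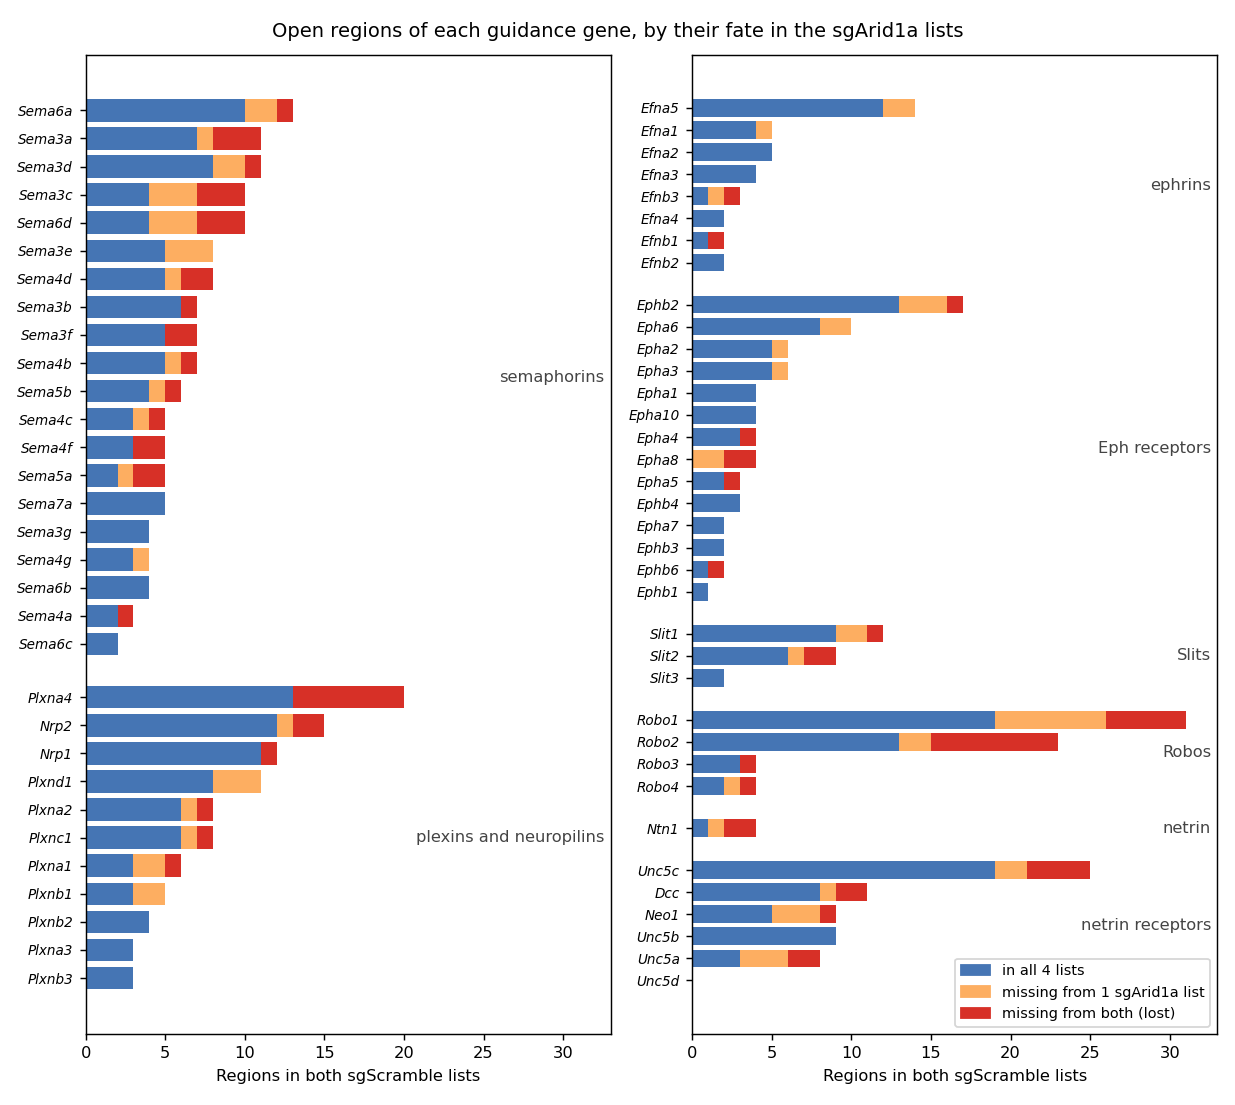
Regions in both sgScramble lists for each guidance gene (horizontal bars, number of regions), split into those in all 4 lists, missing from 1 sgArid1a list and missing from both. Robo2 (8) and Plxna4 (7) hold the most lost regions, and Unc5b keeps all 9.

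The length covered by peaks over all guidance windows was 487.8 and 492.9 kb in the sgScramble libraries and 357.3 and 399.4 kb in the sgArid1a libraries. The groups did not overlap: the means were 490.3 ± 3.57 kb and 378.3 ± 29.8 kb (SD, n = 2), a difference of -22.8% (exact permutation test, two-sided, p = 0.333, the smallest p that 2 libraries against 2 can give). The covered length of all gene windows differed by -20.8% and that of the whole lists by -22.3%. Peaks in guidance windows numbered 544 and 563 in sgScramble and 410 and 448 in sgArid1a, a difference of -22.5% against -18.7% for the whole lists. By gene, covered length was lower in both sgArid1a libraries than in both sgScramble libraries for 51 of 66 members (77.3%), against 53.9% of all genes with a peak. Of members with at least 5 regions, 33 of 39 were lower (84.6%, against 75.3%). Only Sema6c was higher in both (1 of 66, against 3.17% of all genes). With lists of equal length, 33 of 66 were lower, against 38.8% of all genes.

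**Figure D3:**
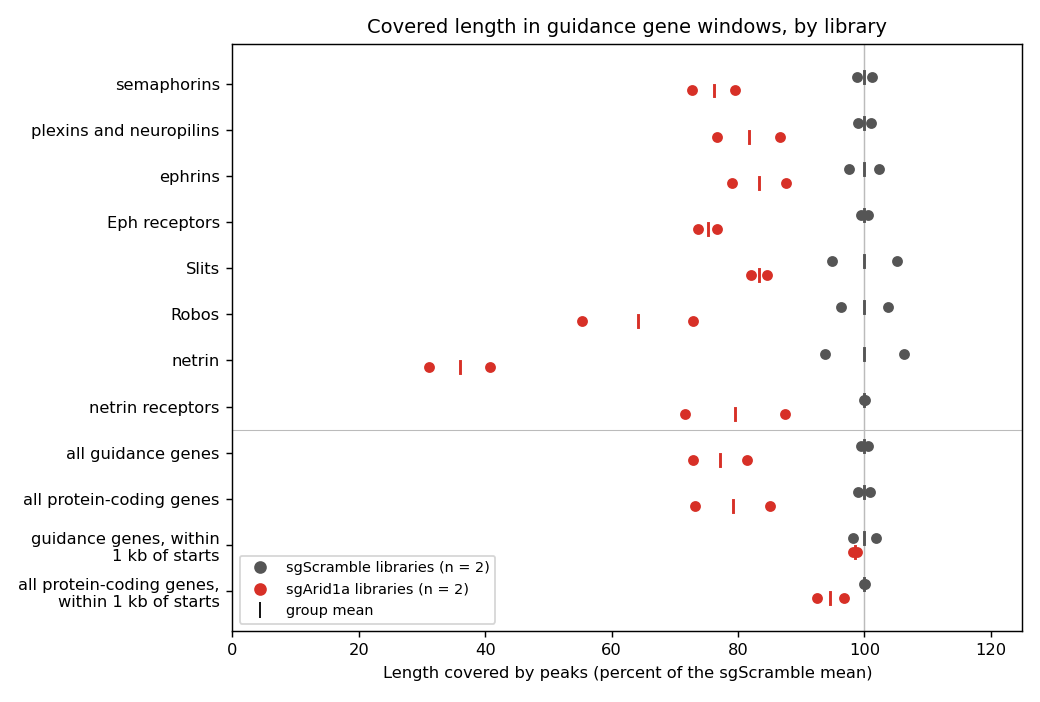
Length covered by peaks in each library as a percent of the sgScramble mean (horizontal axis), by role, for all guidance genes, and within 1 kb of gene starts; points are libraries (n = 2 per group) and short lines group means. Every role lies lower in both sgArid1a libraries, with mean differences of -35.9% for the Robos and -64% for the netrin, while at guidance gene starts the libraries of the groups overlap.

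At gene starts the groups overlapped. The length covered within 1 kb of guidance gene starts was 73412 and 70825 bp in sgScramble and 71270 and 70816 bp in sgArid1a. Those values overlap, and the means differed by -1.49% (exact permutation test, two-sided, p = 0.667), against -5.44% for the starts of all genes. The sign turned with lists of equal length (1502 bp higher in sgArid1a), with the upper 50% of each list (7139 bp higher) and without sgScramble replicate 1 (218 bp higher). A peak was present at the start in all 4 lists for 50 of the 67 genes (74.6%), against 57.0% of all genes. Of the 58 members with a peak there in any list, covered length was lower in both sgArid1a libraries for 11 (against 32.5% of all genes) and higher for 6 (against 7.68%). Of the 50 genes with a start peak in all 4 lists, 25 had a lost region in the window, against 30.7% of all such genes. These shares were not matched for the number of regions. The median number in both sgScramble lists was 5 per guidance gene and 3 over all genes. For 10 members without a listed start, Ntn1 and Plxna4 among them, both gene ends were read in its place. By region, 1 of 71 regions at a start was lost (1.41%, against 1.77% in all genes). That region lay at an end of Efnb3, which had no listed start. In gene bodies 68 of 368 were lost (18.5%, against 15.5%), and in the flanks outside any gene 4 of 44 (9.09%, against 12%). Losses were fewest at starts in both sets, and regions at starts made up 14.7% of the guidance regions against 23.4% in all gene windows. Away from starts the lost share was 17.5% (interval 13.9 to 21.5) against 14.8%.

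Lost regions were weaker than retained ones. The authors give each peak a fold over background, a value of that peak in that library, which was used only to rank peaks within a list. The median percentile of fold was 29.3 for the 73 lost regions and 62.1 for guidance regions in all 4 lists. Away from starts, the lost share was 29.5% below the 25th percentile, against 33.3% in all gene windows. It was 26.2% (27 of 103) from the 25th to the 50th against 18.2%, 14.3% (16 of 112, interval 8.39 to 22.2) between the 50th and 75th percentiles against 7.02%, and 0.98% (1 of 102) above the 75th against 1.49%. The 16 losses between the 50th and 75th percentiles lay in 11 genes but unevenly. Plxna4 held the most, at mean percentiles of 55.6, 57.8, 60.2, 68.5 and 71.2, followed by Sema5a, at 65.8 and 72.4. The share without Plxna4 was not computed. Over all members, Plxna4 included, the share between these percentiles was 15.3% against 7.78% with lists of equal length. With any 1 library left out it ran from 14.9% to 20.5%, against 8.22% to 16.3%.

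**Figure D4:**
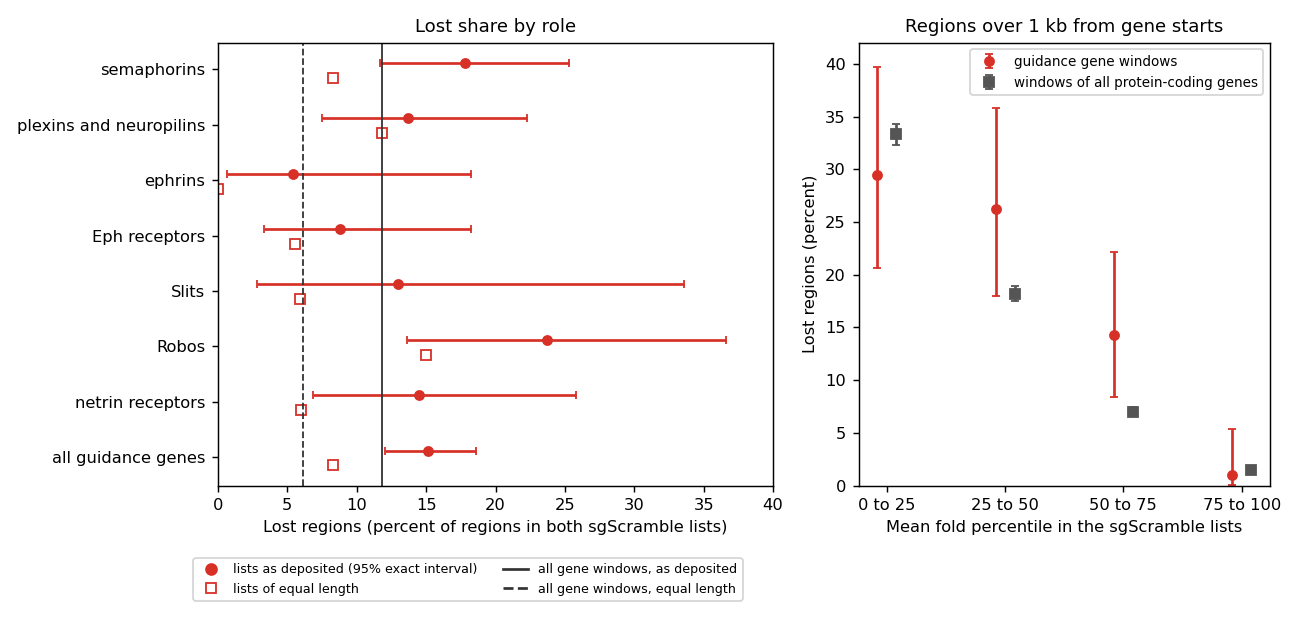
Left, lost regions as a percent of regions in both sgScramble lists by role (circles with 95% exact intervals; open squares, lists of equal length; lines, all gene windows). Right, the same percent away from starts by fold percentile. The guidance share was above that of all gene windows from the 25th to the 50th percentile (26.2% against 18.2%). It was also above between the 50th and 75th (14.3% against 7.02%). The order was the other way below the 25th (29.5% against 33.3%) and above the 75th (0.98% against 1.49%).

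Among the ligands, semaphorins lost 24 of 135 regions (17.8%, interval 11.7 to 25.3, against 11.8% in all gene windows). A lost region was found in 14 of the 20 genes, against 30.1% of all genes and 60.2% of those with at least 5 regions. None was gained, and covered length was 139175 and 142629 bp in sgScramble and 102447 and 112127 bp in sgArid1a. Sema3a, a secreted repellent that binds neuropilin 1, lost 3 of 11 regions, all in the gene body. Its window had 8423 and 8007 bp covered in sgScramble and 5842 and 7047 bp in sgArid1a, without overlap. Sema3c, a secreted semaphorin with a known part in cardiac neural crest migration, lost 3 of 10. Covered length there was 9725 and 9903 bp in sgScramble and 5863 and 7324 bp in sgArid1a. Its start was retained, at 1452 and 1389 bp against 1318 and 1402 bp.

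Sema6d, a transmembrane semaphorin, also lost 3 of 10 regions and kept 4 in all lists. Its covered length was 10742 and 10343 bp in sgScramble and 5243 and 5749 bp in sgArid1a, or 52.1% of the sgScramble mean. Both sgArid1a libraries lay far below both sgScramble libraries, and no library had a peak at either listed start. Sema5a, a transmembrane semaphorin with thrombospondin repeats, lost 2 of 5 regions. One, at chr15:32306573-32307205 in the gene body, was at the 62.2 and 82.5 percentiles of fold in the sgScramble lists, among the 5 strongest losses in the group. With lists of equal length, 2 of the 2 Sema5a regions were again lost, and 1 of 3 each in Sema3a, Sema3c and Sema6d. Sema6c, a transmembrane semaphorin, went the other way, with 2511 and 2433 bp in sgScramble and 3296 and 3022 bp in sgArid1a.

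Among the densely covered semaphorins, Sema6b, a transmembrane one, kept 4 of 4 regions. Sema4c, another, kept 3 of 5 and lost 1, and Sema3b, a secreted one, kept 6 of 7 and lost 1. These genes and the ephrins Efna1 and Efna3 had the most covered length per kb of window in sgScramble. Part of that coverage is shared with neighbours. Of regions in both sgScramble lists and in no other gene's window, Sema4c and Sema3b had 0. Sema6b and Efna1 had 2 each, and Efna3 had 4. Over the whole group, 104 of 670 regions (15.5%) also lay in the window of another protein-coding gene. The strongest region kept by the group was at Sema3d, a secreted semaphorin, at chr5:12467362-12468445, with percentiles of 99.4 and 99.1 in sgScramble and 99.6 and 99.8 in sgArid1a. Sema3d had no peak at its start in any list.

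Ephrins, membrane-bound ligands that signal on contact, lost the smallest share of the families with more than 4 regions, 2 of 37 regions (5.41%, interval 0.661 to 18.2). The share was 11.8% in all gene windows and 8.97% in all genes under 50 kb, both inside that interval. Most ephrin genes are short, with a median of 9.88 kb (4.64 to 278 kb). They kept 31 in all 4 lists. Their share lay below that of all gene windows under each of the 14 alternative settings, which reuse the same 4 libraries and are not matched for gene length. None of 30 ephrin regions was lost with lists of equal length. Efna1, a GPI-anchored ephrin-A, kept 4 of 5 regions, and Efna5, another, kept 12 of 14 with none lost. Efnb3, a transmembrane ephrin-B, had no listed start, so both its ends were read as starts. It held the only lost region counted as at a start, chr11:69554507-69555057, 0.415 kb from the lower-coordinate end of the gene. That region was weak, at the 14.9 and 11.4 percentiles, and also lies in the windows of Dnah2 and Wrap53. Strand was not listed for Efnb3, so whether this end is the start or the far end of the gene was not determined here. Ephrin covered length was 44686 and 46862 bp in sgScramble and 36162 and 40114 bp in sgArid1a, which do not overlap, a difference of -16.7% (exact permutation test, two-sided, p = 0.333).

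Slits lost 3 of 23 regions (13%, interval 2.78 to 33.6, against 11.8% in all gene windows). Slit2, a secreted repellent, lost 2 of 9, and its covered length was 6064 and 6704 bp in sgScramble and 3387 and 4600 bp in sgArid1a. Slit1, its paralogue, lost 1 of 12 and gained 1, a weak region at chr19:41660944-41661220 with percentiles of 2.84 and 24.7. Its 12808 and 11042 bp in sgScramble overlapped the 12001 and 9656 bp in sgArid1a. Slit2 and Slit3 each carry a copy of the miR-218 hairpin in an intron. The mature microRNA from the 5′ arm is the same for both copies, while those from the 3′ arm differ. The shared one is shown with the seed (bases 2 to 8) in capitals.
mmu-miR-218-5p: uUGUGCUUgaucuaaccaugu

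The nearest open region to the hairpin was 16.7 kb away in Slit2 and 26.3 kb away in Slit3, so neither hairpin lay in a called region. Ntn1, the secreted netrin, had 4 regions in both sgScramble lists, of which 2 were lost and 1 was retained in all lists. Its covered length was 3910 and 3451 bp in sgScramble and 1503 and 1146 bp in sgArid1a, a difference of -64% without overlap. Within 1 kb of its ends, as no start was listed, peaks covered 976 and 1021 bp in sgScramble and 818 and 1146 bp in sgArid1a, which overlap. Both lost Ntn1 regions were at low ranks, with mean percentiles of 3.53 and 22.1, and no region of Ntn1 was lost with lists of equal length.

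Among the receptors, the Robos had the largest lost share of any family with more than 4 regions, 14 of 59 (23.7%, interval 13.6 to 36.6). The share was 11.8% in all gene windows. Robo1 and Robo2, both over 200 kb, hold 54 of the 59 regions. In all genes of that length 16.5% of regions were lost, which lies inside the Robo interval. All 4 genes had a lost region, against 30.1% of all genes and 60.2% of those with at least 5 regions. For the neighbours Robo3 and Robo4 this was 1 region lying in both windows, at a mean percentile of 5.93. Covered length was 43151 and 46463 bp in sgScramble and 24784 and 32676 bp in sgArid1a, a difference of -35.9% without overlap. Robo2, a Slit receptor spanning 1560 kb on chromosome 16, lost 8 of 23 regions and kept 13. Peaks covered 16103 and 18774 bp of its window in sgScramble and 9287 and 11729 bp in sgArid1a. Its region at chr16:74505180-74505771 was the strongest loss in the group, at the 95.1 and 88.5 percentiles, and the single loss above the 75th percentile away from starts.

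Robo1, the other broadly used Slit receptor, lost 5 of 31 regions, kept 19 in all lists and lacked 7 in 1 sgArid1a list. Covered length was 23722 and 23824 bp in sgScramble and 13560 and 18119 bp in sgArid1a. The listed start of Robo1 was covered over 1307 and 1307 bp in sgScramble and 1301 and 1306 bp in sgArid1a. Of the 3 listed starts of Robo2, 1 had peaks, over 1380 and 1441 bp in sgScramble and 1418 and 1380 bp in sgArid1a, and the other two had none in any list. The lost regions lay in the gene bodies, away from these starts. Together the genes lost 24.1% of 54 regions, against 15.4% in the rest of chromosome 16. With lists of equal length 4 of 15 Robo2 regions and 2 of 22 Robo1 regions were lost, and the Robo share stayed above that of all gene windows in 13 of the 14 settings.

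Plexins and neuropilins lost 13 of 95 regions (13.7%, interval 7.49 to 22.3, against 11.8% in all gene windows), and Plxna4 held 7 of the 13. Plxna4, a receptor for class 3 and class 6 semaphorins, kept 13 of 20 regions and had none missing from only 1 sgArid1a list. Its covered length was 22636 and 21166 bp in sgScramble and 13140 and 17538 bp in sgArid1a. No start was listed for Plxna4; within 1 kb of its ends, peaks covered 1327 and 1381 bp in sgScramble and 1381 and 1352 bp in sgArid1a. With lists of equal length, 7 of these 7 regions were again lost, and 29 of the 73 over all members.

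The Plxna4 losses were clustered, a feature picked out after the values were seen. Of the 7, 5 fell within 55.5 kb of the gene body, chr6:32384665-32440177, at mean percentiles from 35.8 to 68.5, and 1 region among them was present in all 4 lists. Another loss at chr6:32309233-32309939 was at the 73.1 and 69.2 percentiles. A gained region lay nearby at chr6:32349054-32350397, at the 36.9 and 31.4 percentiles of the sgArid1a lists. In other members, the largest run of losses with no more than 50 kb between neighbours was 4 in Unc5c, over 78.0 kb that also held 4 regions of all lists.

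**Figure D5:**
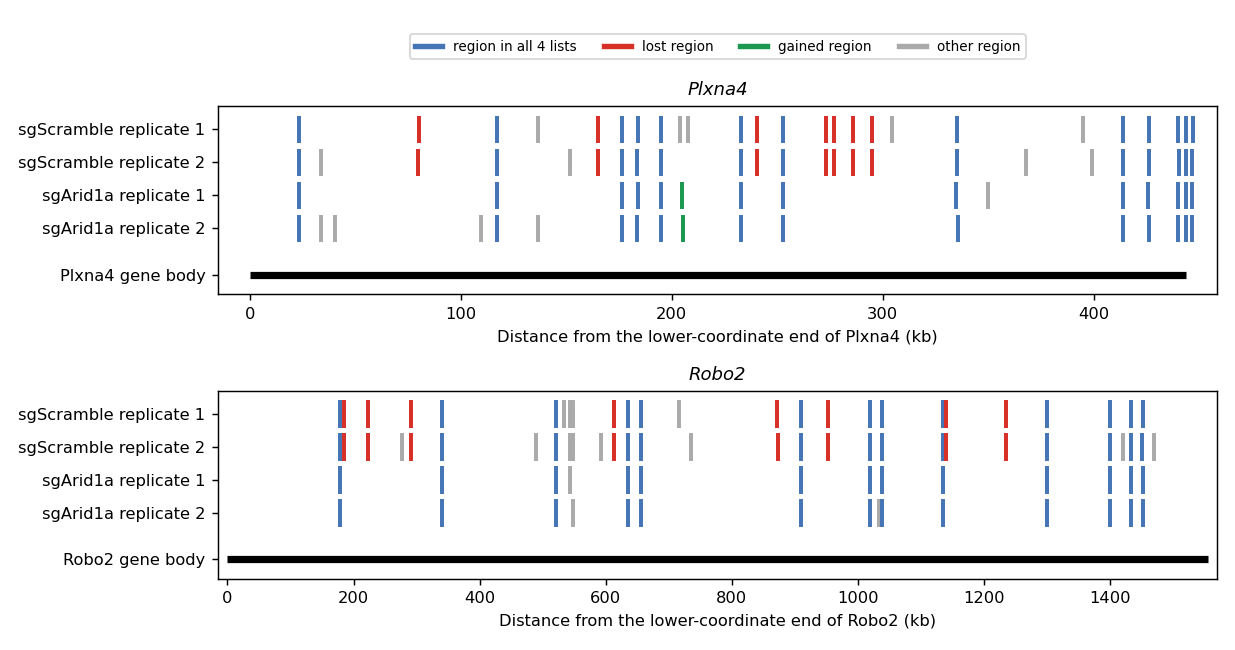
Peaks of each library along Plxna4 and Robo2 (horizontal axis, distance from the lower-coordinate end of the gene in kb; 1 mark per peak at its midpoint, not to width), coloured by region class; the black bar is the gene body. Red marks, present in both sgScramble libraries and in neither sgArid1a library, number 7 in Plxna4 and 8 in Robo2, and 5 of those in Plxna4 lie within 55.5 kb.

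Outside Plxna4, no gene of this family lost more than 2 regions. Plxna2, a receptor for class 3 and class 6 semaphorins, had the only gained region at a gene start, chr1:194618853-194619167, 0.662 kb from the listed start, covering 299 and 259 bp in sgArid1a, with nothing called there in sgScramble. It was weak, at the 35.6 and 18.2 percentiles. Plxnb2, a receptor for class 4 semaphorins, kept 4 of 4 regions. One of its 2 listed starts had its whole window of 2001 bp covered in all 4 libraries, and the other had no peak in any list. The neuropilins Nrp1 and Nrp2, co-receptors for secreted semaphorins, lost 1 of 12 and 2 of 15 regions.

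Eph receptors lost 6 of 68 regions (8.82%, interval 3.31 to 18.2), against 11.8% in all gene windows. The share lay above that of all gene windows in 3 of the 14 settings: 21.2% against 19.3% without sgScramble replicate 1, 17.7% against 17.5% without sgScramble replicate 2, and 17.6% against 13% with the upper 50% of each list. Covered length was lower in both sgArid1a libraries for 11 of the 14 genes (53.9% of all genes with a peak). Epha8 had the lowest ratio of covered length of the 66 members, 22.2%, with 5262 and 2658 bp in sgScramble and 539 and 1221 bp in sgArid1a. It lost 2 of 4 regions, kept none in all lists and gained 1 in its flank at the 36.3 and 33 percentiles. Its 2 lost regions ranked low, at mean percentiles of 8.11 and 16.1. With lists of equal length, Epha8 had 0 regions in both sgScramble lists. The same held at a −log10 q of at least 5 and with the upper 50% of each list. Ephb2, a receptor for ephrin-B ligands, kept 13 of 17 regions and lost 1. Its covered length was 13834 and 14424 bp in sgScramble and 9657 and 11043 bp in sgArid1a, with both sgArid1a values below both sgScramble values.

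Netrin receptors lost 9 of 62 regions (14.5%, interval 6.86 to 25.8, against 11.8% in all gene windows). Unc5c, which mediates repulsion from netrin, lost 4 of 25 and kept 19, level with Robo1 for the most retained regions. Its covered length was 24041 and 24892 bp in sgScramble and 17725 and 20244 bp in sgArid1a, and 1 of 20 regions was lost with lists of equal length. Unc5a, a related receptor, lost 2 of 8, with 7176 and 6915 bp in sgScramble and 2366 and 4413 bp in sgArid1a. Unc5b, another, kept 9 of 9, with 10405 and 10255 bp in sgScramble and 9613 and 10098 bp in sgArid1a. Neo1, the Dcc-like receptor, had its whole start window of 2001 bp covered in all 4 libraries and lost 1 of 9 regions. Unc5d had no peak in any list.

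Ligands and receptors as classes lost like shares, 31 of 199 (15.6%, interval 10.8 to 21.4) and 42 of 284 (14.8%, interval 10.9 to 19.5). The share in all gene windows was 11.8%, inside both intervals. The other genes of these pathways were read from a list of 56 co-receptors, alternative ligands and cytoplasmic effectors, such as the collapsin response mediators. They lost 54 of 406 regions (13.3%, interval 10.2 to 17.0, against 11.8% in all gene windows) and gained 5 of 309 (1.62%, against 1.33%). A lost region was found in 29 of the 56 genes. It was found in 30.1% of all genes with a region in both sgScramble lists and in 60.2% of those with at least 5 regions. Covered length was lower in both sgArid1a libraries in 37 of the 56 and higher in 1 (3.17% of all genes with a peak). The lower share was 53.9% of all genes with a peak and 75.3% of those with at least 5 regions. The 56 genes were not matched for the number of regions. Their median covered length was 79.6% of the sgScramble mean. The corresponding median was 78.3% over the 66 guidance genes and 83.7% over all genes. With lists of equal length 27 of 331 pathway regions were lost (8.16%).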

How the data were processed

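Omni-ATAC was applied to B16F10 cells, with 2 sgScramble and 2 sgArid1a libraries grouped by title. The authors deposited 1 broad peak list per library, so replicates were not pooled. Each peak carries a deposited score (10 times the −log10 q-value), a deposited fold (a ratio over background) and deposited −log10 p-values and q-values. STAR 2.5.3a, HOMER, GRCm38 and mm10 are named in the submitters' processing notes; for the peak caller and any Tn5 shift, a name or setting is not given in the sources used here. Depth is unknown, so intervals cover counting error over regions.

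Peaks overlapping by at least 1 bp were merged into union regions, and a list had a region when one of its peaks overlapped it. Lost and gained regions were counted over regions in both lists of the group that had them, with Clopper-Pearson intervals. Covered length per library was compared by exact two-sided permutation of group means. Gene starts came from the RefSeq promoter table for 57 members; for the other 10, either gene end was used. Members and gene lists were chosen with earlier results of these data known. Named members are those with the most lost, gained or retained regions, the 5 strongest lost and gained regions, start regions lost or gained, the 5 most covered per kb and those without a peak; others were picked after their values were seen. Alternatives were a −log10 q of at least 5, the upper 50% by fold, equal-length lists, presence and absence at different thresholds, merging within 1 kb, 50% overlap, a width of at least 500 bp, other windows, regions in no other gene's window, each library left out, and the replicate number as a block. On lists simulated from 103629 regions, 200 of 200 planted lost and 200 of 200 planted gained regions were recovered, which checks merging and not power. Python 3.11.15, numpy 2.4.6, pandas 2.3.3, SciPy 1.17.1 and matplotlib 3.10.9 were used.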

Additional observations from a re-analysis of the deposited data

How the results depend on the processing

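Only 2 libraries stand on each side and the sgArid1a lists are shorter; counts moved with list length and with the number of lists a region had to be in. Lost guidance regions numbered 32 with lists of equal length, 38 with peaks of at least 500 bp (11.6%, below the 12.5% of all gene windows), 11 when presence needed the upper 50% by fold and absence was read in full lists, 40 with the upper 50% throughout, and 97 to 132 with 1 library left out, where fewer lists define a loss. In 13 of the 14 settings, all but the 500 bp minimum, the guidance share lay above that of all gene windows. Gained regions numbered 0 at a −log10 q of at least 5, 7 with 50% overlap, 2 in gene bodies alone, 17 with lists of equal length (4.83% against 4.36%), 2 with peaks of at least 500 bp, 0 with presence so defined, and 9 to 33 with 1 library left out. The gained share lay above that of all gene windows in 3 of the 14 settings and below it in 11. Genes with lower covered length in both sgArid1a libraries numbered 33 with lists of equal length and 33 with the upper 50% (53 to 58 with 1 library left out). With 1 library left out, fewer values have to be separated, which makes such a call easier for every gene. Counts given here without a share over all genes or all gene windows show only how the number moved with the setting. Lost regions of other pathway genes numbered 83 with 50 kb flanks (11.8% against 12%), 27 with lists of equal length, 7 with presence so defined, 35 with the upper 50%, and 73 to 99 with 1 library left out.

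Covered length and peak number in guidance windows were lower in sgArid1a in every setting run. Near starts the difference of -1075.5 bp changed sign with lists of equal length (1502 bp) and with the upper 50% (7139 bp), and ran from -2369 to 218 bp with 1 library left out, being positive without sgScramble replicate 1; the cause was not tested. The replicate number as a block gave the same differences, -112013.5 bp in windows, -124.5 peaks and -1075.5 bp near starts, and an exact sign-flip p of 0.5 for windows. The labels do not say that a number marks a shared culture, and 2 pairs cannot show it, so the numbers were not used as pairs.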
